A study of Mus musculus with 16 samples.

Results

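The endoplasmic reticulum (ER) chaperones and the unfolded protein response were followed through 32 genes, taken by name from a gene table of mouse liver RNA-seq. All 32 were found among its 46078 genes, and all 32 passed the filter on low counts, as did 15075 genes in total. The livers came from male mice of the strain labelled C56B6/J, which from young adulthood ate either control (CD) or high-fat (HFD) diet for 16 weeks. Livers were taken either with free access to food or after a fast of 16 h, which gives 4 groups of 4 livers: CD fed, CD fasted, HFD fed and HFD fasted. The labels name no transgene or drug, and every library was made from polyadenylated RNA of whole liver. The design sets fasted against fed livers on each diet, and HFD against CD in each feeding state.

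Proteins that hepatocytes secrete or place in membranes enter the ER through the Sec61 channel and are folded there by Hsp70 and Hsp90 family chaperones, by the lectins calnexin and calreticulin, and by protein disulfide isomerases. Chains that fail to fold are pulled back into the cytosol and destroyed by ER-associated degradation. When unfolded chains build up, the membrane sensors encoded by Ern1 (IRE1α), Eif2ak3 (PERK) and Atf6 switch on the unfolded protein response, which raises transcription of chaperone and degradation genes through XBP1, ATF4 and cleaved ATF6.

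Levels are given below as CPM, counts relative to the library total after TMM (trimmed mean of M-values) scaling. CPM compares a gene between libraries and not one gene with another. Values are listed in the order of replicates 1 to 4. Changes are log2 fold changes ± SE from edgeR's quasi-likelihood test over 15075 genes, with p-values adjusted by Benjamini-Hochberg over all of them, and a gene was called at an adjusted p under 0.05. Numbered samples of a group were taken as separate livers, so p-values measure the spread between these samples. Fasting in CD and HFD in fed mice are both measured against the same 4 CD fed libraries, and each other pair of neighbouring comparisons shares 1 group too. In whole liver, fewer cells of a type and less RNA per cell cannot be told apart.

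Library totals were 55415835 to 57583153 counts in CD fed and 41364448 to 53982285 in the other 12 libraries. With every library thinned to the lowest total, a step chosen after seeing the depths, the number of the 32 genes called was the same in each of the 5 comparisons below. Markers of hepatocytes summed to between 75757 and 142980 CPM. The 10 pancreatic acinar markers summed to 6.19 to 23.5 CPM, of which Cela1 made up 6.04 to 23.2, and 6 of the 10 had at most 3 counts in every library. Over the 32 genes 1 library stood low in each group. CD fasted 2 was the lowest of its group for 27 genes, HFD fasted 1 for 21, HFD fed 4 for 20 and CD fed 4 for 18.

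CD fed livers had the highest levels. The group mean was highest in CD fed for 30 of the 32 genes, the exceptions being Atf6, highest in HFD fed, and P4hb, highest in HFD fasted. The summed level of the 32 genes was 8580 to 10484 CPM in CD fed, 5671 to 8722 in CD fasted, 5815 to 7106 in HFD fed and 6174 to 7620.0 in HFD fasted. CD fed overlapped CD fasted by a single library, since the highest CD fasted sum lay above the lowest CD fed sum, and it lay above all 8 HFD libraries. For 11 genes all 4 CD fed libraries lay above the 12 others: Ern1, Dnajb11, Sdf2l1, Calr, Canx, Pdia3, Pdia6, Derl2, Sec61a1, Sec61b and Ssr1, beside 2.58% of all genes tested. Scaled to exon length, the most abundant of the 32 were P4hb (mean 540.1 RPKM over 16 libraries), Calr (242 RPKM), Herpud1 (209.7 RPKM), Hsp90b1 (204 RPKM) and Hspa5 (184 RPKM). The least abundant were Derl3 (2.96 RPKM), Eif2ak3 (3.07 RPKM) and Dnajc10 (4.74 RPKM).

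**Figure D1:**
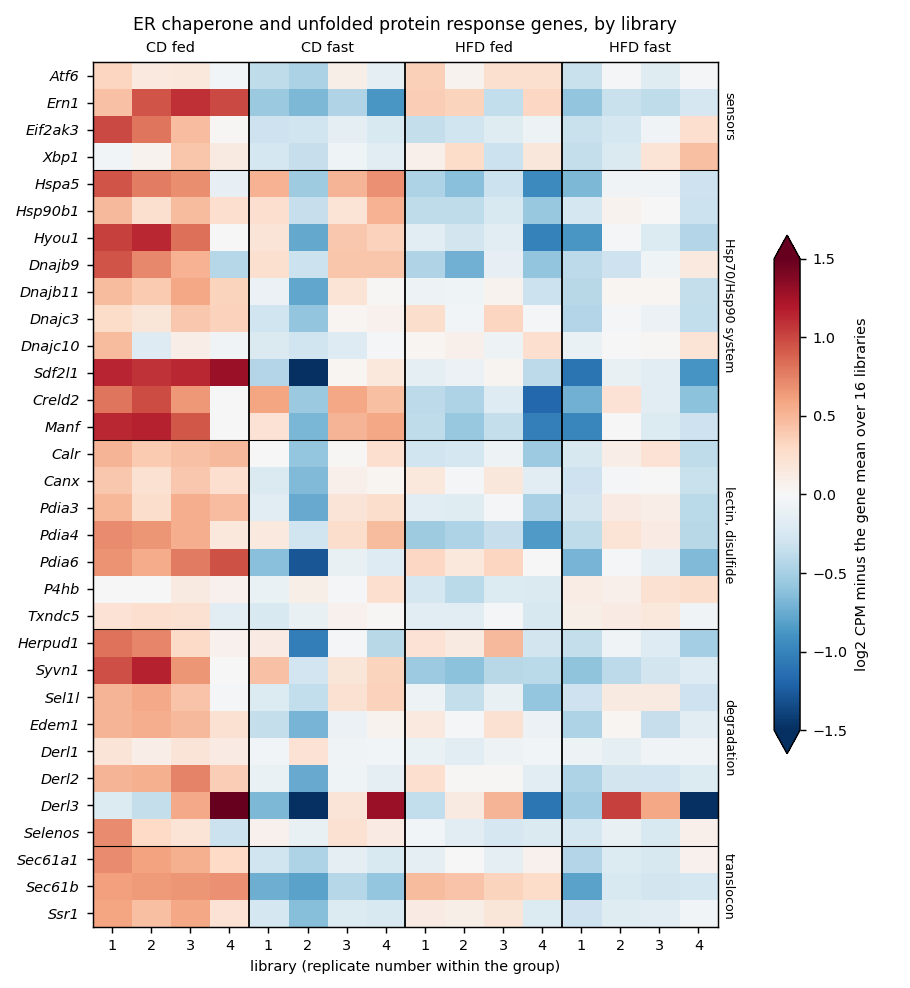
Each row is 1 of the 32 genes, ordered by role, and each column 1 library. Colour gives log2 CPM minus the gene's mean over the 16 libraries, with values beyond the scale drawn in its end colours. The 4 CD fed columns are red in most rows, and CD fasted 2 is blue in most rows.

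Most of these genes were lower with HFD in fed livers. Of the 32, 18 were called, all lower, against 7.5% of all genes called (3.28% higher and 4.22% lower). The median change of the 32 was -0.57 on the log2 scale beside 0.01 over all genes tested. For 22 of them the HFD fed and CD fed libraries did not overlap, which was so for 15.7% of all genes tested. With fasting in CD 16 were called, again all lower, against 25.2% of all genes called (13.7% higher and 11.5% lower), with a median of -0.51 beside -0.01. Here 15 of the 32 did not overlap between groups, beside 25.4% of all genes. The 2 called sets shared 8 genes, which is 8 of 16 for fasting in CD and 8 of 18 for HFD in fed mice, with the CD fed libraries common to both.

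On HFD, fasting changed 3 of the 32, close to the share over all genes (8.86% called, 4.78% higher and 4.07% lower). P4hb rose, Ern1 and Sec61b fell, and the median was 0.01. HFD in fasted mice changed 0 of the 32 by edgeR, against 7.7% of all genes (3.05% higher and 4.65% lower). At an unadjusted p under 0.05 there were 4, beside 25.9% of all genes, DESeq2 called 1 (Syvn1) and limma-voom 0. Without CD fasted 2, Hspa5 and Hsp90b1 were called lower, without CD fed 4 Syvn1 was, and without HFD fasted 1 Sec61b was called higher. With total counts in place of TMM, Txndc5 and Sec61b were called higher. The median was -0.03, with single values from -0.62 to 0.26. The interaction term subtracts the CD fasting change from the HFD one. It was called for Ern1, Eif2ak3 and Sec61a1, all positive, against 2.59% of all genes (1.23% positive and 1.36% negative). DESeq2 called 9, these 3 together with Calr, Pdia4, P4hb, Txndc5, Sec61b and Ssr1. The term was above 0 for 31 of the 32, with a median of 0.56 beside -0.0015 over all genes, and 17 had an unadjusted p under 0.05, beside 20.2% of all genes. None of the 3 edgeR calls held in every alternative fit, since each was lost with a replicate block and in 11 or 12 of the 16 fits that left out 1 library.

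**Figure D2:**
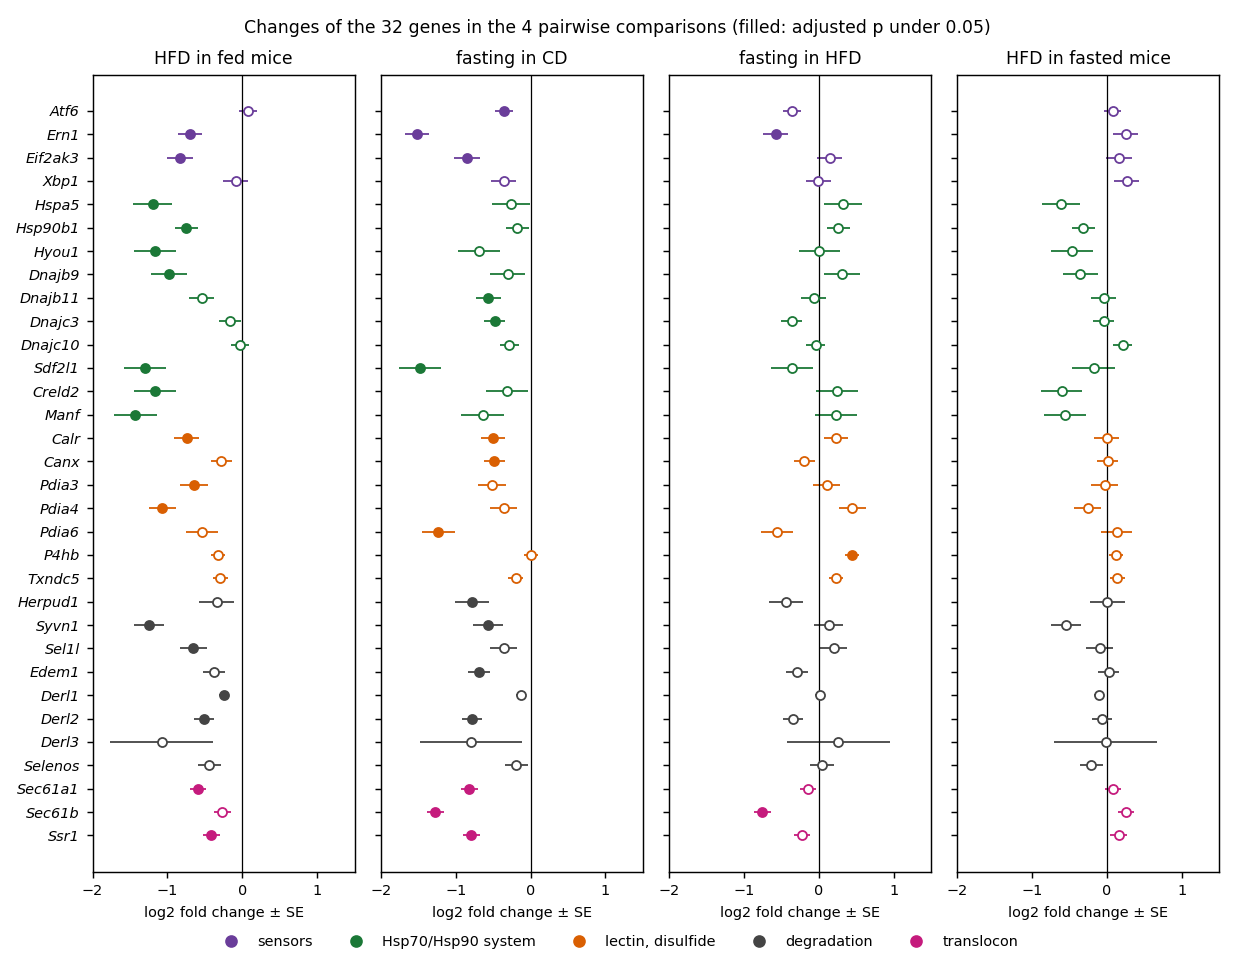
Points are log2 fold changes with SE bars for the 32 genes in the 4 pairwise comparisons, coloured by role and filled where the adjusted p was under 0.05. Nearly all points of HFD in fed mice and fasting in CD lie left of 0, while those of fasting in HFD and HFD in fasted mice lie on both sides.

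The promoters of this family are known for the ER stress response element (ERSE), through which NF-Y with ATF6 or XBP1 acts, so its letters were looked for in the RefSeq promoter table of GRCm38.p6, 250 bases before to 50 after each start. The table held 27 of the 32 genes, without Atf6, Derl1, Hyou1, Manf and Sec61a1. The search was for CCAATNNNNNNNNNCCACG on both strands. It matched in 9 of the 27 genes (33.3%) and in 37 of all 27025 genes of the table (0.137%). The 10 matches are shown because they hold letters that 9 of the 27 genes have in common. The genes were taken by name from a family known for this element, so its share among them is a description and not independent support. Capitals mark the fixed letters, each is read 5′ to 3′ on the strand named, and 9 of the 10 lay outside any gene of the GENCODE annotation, the Hspa5 match lying in an annotated Hspa5 exon:
Calr, chr8:84847075-84847093, plus strand, bases 162 to 144 before the start: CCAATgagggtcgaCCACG
Canx, chr11:50325800-50325818, minus strand, bases 145 to 127 before the start: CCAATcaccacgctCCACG
Creld2, chr15:88819520-88819538, minus strand, bases 126 to 108 before the start: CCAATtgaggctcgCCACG
Derl3, chr10:75893242-75893260, minus strand, bases 156 to 138 before the start: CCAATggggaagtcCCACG
Dnajc3, chr14:118937827-118937845, plus strand, bases 105 to 87 before the start: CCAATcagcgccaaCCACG
Hsp90b1, chr10:86705533-86705551, plus strand, bases 107 to 89 before the start: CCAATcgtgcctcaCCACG
Hsp90b1, chr10:86705638-86705656, minus strand, bases 212 to 194 before the start: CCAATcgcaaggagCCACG
Hspa5, chr2:34772025-34772043, plus strand, bases 65 to 47 before the start: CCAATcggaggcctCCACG
Pdia6, chr12:17266491-17266509, plus strand, bases 98 to 80 before the start: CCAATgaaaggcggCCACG
Syvn1, chr19:6046532-6046550, plus strand, bases 44 to 26 before the start: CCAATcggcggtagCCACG

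Hsp90b1 alone carried 2 matches, read on opposite strands. A stretch of 185 bases of its window, chr10:86705510-86705694 in GRCm38.p6, is given on the minus strand, from 250 to 66 bases before the start, ending where the annotated gene begins. Capitals again mark the fixed letters, and the second match appears as its reverse complement:
Hsp90b1: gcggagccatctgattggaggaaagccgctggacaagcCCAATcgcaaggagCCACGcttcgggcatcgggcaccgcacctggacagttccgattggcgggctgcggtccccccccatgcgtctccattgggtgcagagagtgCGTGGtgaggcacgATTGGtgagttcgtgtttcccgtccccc

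The related element ERSE-II, ATTGGNCCACG, matched in Dnajb11 and Herpud1, 2 of the 27 genes (7.41%) beside 0.0444% of all genes. The UPRE letters TGACGTGG matched in Txndc5, 1 of 27 (3.7%) beside 0.714%. No window of the 27 held 2 kinds of element, although all 3 elements hold the letters CCACG on 1 strand. Of the 9 genes with an ERSE, 5 were called lower with HFD in fed mice and 5 with fasting in CD, with medians of -0.75 and -0.49. Of the 18 without, 9 and 9 were called, with medians of -0.47 and -0.54. Of all genes, 4.22% and 11.5% were called lower in these comparisons, and 7.5% and 25.2% in either direction. A match is a description of the letters and not a measured binding site.

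Among the sensors and their factors, Ern1 and Eif2ak3 fell with fasting in CD and with HFD in fed mice, Atf6 fell with fasting in CD, and edgeR called Xbp1 in no comparison of the fit to all libraries. Ern1, the kinase and endoribonuclease that splices Xbp1 mRNA, stood at 102, 144, 160.1 and 149 CPM in CD fed, 50.9, 46.9, 54.6 and 41.001 in CD fasted, 96.7, 94.7, 58.1 and 92.9 in HFD fed and 49.5, 59.5, 57.5 and 62.9 in HFD fasted. All CD fed values were above those of every other library, and a single HFD fed value lay close to the fasted ones. Ern1 changed by -1.52 ± 0.16 (SE, adjusted p = 2.33e-05) with fasting in CD, to 34.9% of the fed level. On HFD the fasting change was -0.58 ± 0.16 (SE, adjusted p = 0.0376), with HFD fed 3 reaching into the fasted range. That call was lost with total counts in place of TMM, with a replicate block and with only the HFD groups fitted. It was also lost in 6 of 16 fits with 1 library left out. HFD in fed mice changed Ern1 by -0.70 ± 0.16 (SE, adjusted p = 0.0178). The interaction was 0.94 ± 0.23 (SE, adjusted p = 0.0407), a call lost in 11 of 16 fits with 1 library left out.

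Eif2ak3, which phosphorylates eIF2α, was at 35.3, 30.8, 24.4 and 17.8 CPM in CD fed, 14.2, 14.4, 16.1 and 15.1 in CD fasted, 13.8, 14.4, 15.6 and 16.8 in HFD fed and 13.99, 14.8, 17.1 and 21.1 in HFD fasted. CD fed spread from 17.8 to 35.3 CPM, yet its lowest value was above all CD fasted and HFD fed values. It changed by -0.85 ± 0.17 (SE, adjusted p = 0.00227) with fasting in CD and by -0.83 ± 0.17 (SE, adjusted p = 0.00885) with HFD in fed mice. Fasting in HFD gave 0.14 ± 0.17 (SE, adjusted p = 0.636), and the interaction was 0.996 ± 0.24 (SE, adjusted p = 0.0407). Part of its exon length, 8.0%, is shared with another annotated gene, and the strand setting of the counting is not given in the sources used here.

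Atf6, the factor released from the membrane by cleavage, stood at 114, 101, 101 and 88.7 CPM in CD fed, 69.9, 65.5, 96.7 and 83.02 in CD fasted, 116, 94.4, 108 and 108 in HFD fed and 72.3, 89.9, 80.1 and 89.3 in HFD fasted. The fasted libraries were mostly lower on both diets. Fasting in CD changed it by -0.36 ± 0.12 (SE, adjusted p = 0.0363), with CD fasted 3 inside the fed range, and fasting in HFD by -0.36 ± 0.12 (SE, adjusted p = 0.0675), without overlap but above the threshold. HFD in fed mice left it at 105% of CD fed, 0.08 ± 0.12 (SE, adjusted p = 0.755). Xbp1, whose spliced mRNA encodes the active factor, was at 189, 202, 261 and 214 CPM in CD fed, 162, 153, 187 and 173 in CD fasted, 205, 236, 156 and 218 in HFD fed and 151, 168, 224 and 266 in HFD fasted. Its fasted CD values all lay below its fed CD values, but the change of -0.36 ± 0.17 (SE, adjusted p = 0.13) did not pass, although it was called when only the CD groups were fitted. HFD in fed mice gave -0.09 ± 0.17 (SE, adjusted p = 0.81) and fasting in HFD -0.01 ± 0.17 (SE, adjusted p = 0.979). Gene counts do not separate spliced from unspliced Xbp1.

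**Figure D3:**
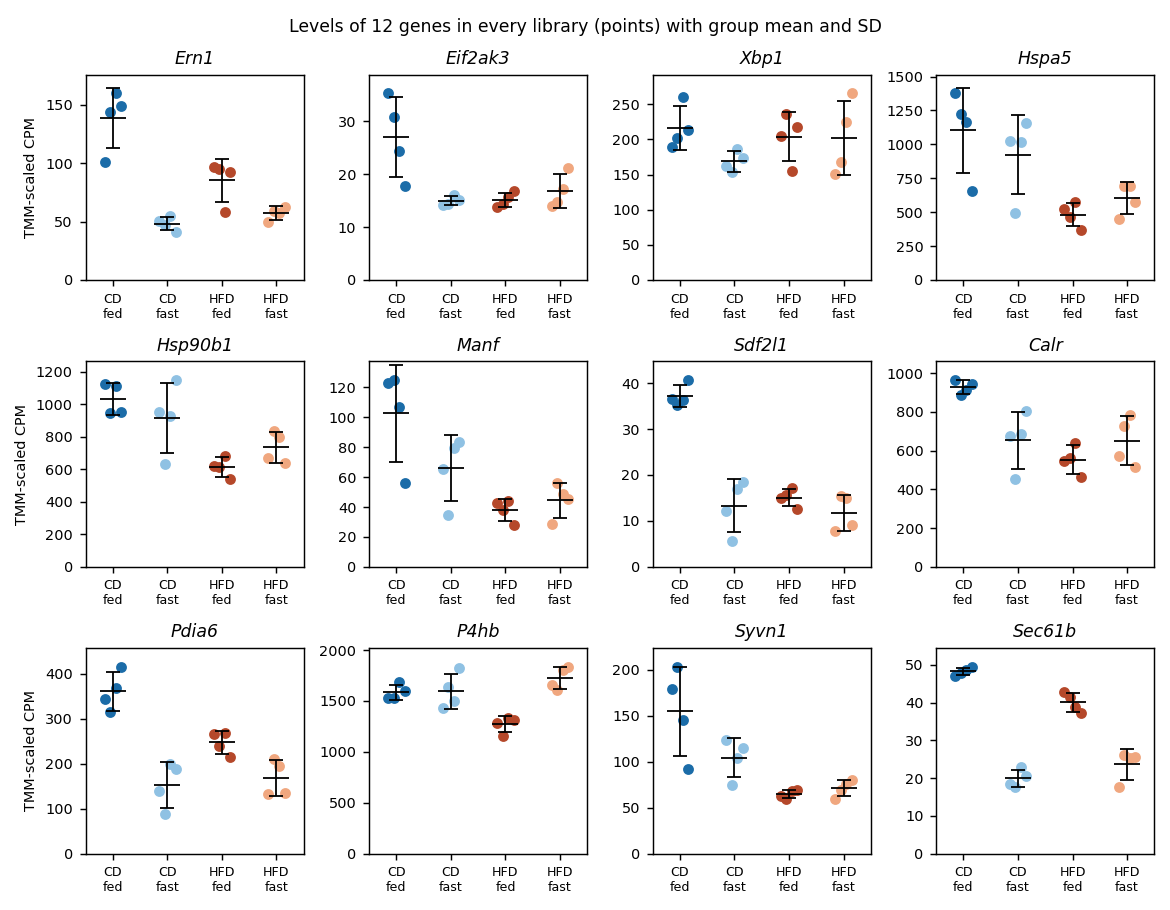
CPM of 12 genes is plotted for every library (points, by group), with the group mean and SD as bars; each vertical axis starts at 0. CD fed stands above the other groups for Ern1, Sdf2l1, Calr, Pdia6 and Sec61b, while for Hspa5 and Manf both CD groups spread above HFD, apart from a low library in each.

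Of the 10 genes of the Hsp70 and Hsp90 system, 7 fell with HFD in fed mice and 3 with fasting in CD. Of all genes 4.22% and 11.5% were called lower in these comparisons, and 25.2% were called in either direction with fasting in CD, which 3 of 10 is close to. The median changes were -1.07 and -0.40. Hspa5 (BiP), the central Hsp70 of the ER, was at 1377, 1222, 1163 and 656 CPM in CD fed, 1027, 494, 1019 and 1155 in CD fasted, 521, 466, 572 and 369.8 in HFD fed and 448, 691, 694 and 577 in HFD fasted. All 4 HFD fed values lay below all 4 CD fed values, although CD fed 4 and CD fasted 2 were far below the rest of their groups. The HFD change in fed mice was -1.20 ± 0.26 (SE, adjusted p = 0.0123), to 43.7% of CD fed. Fasting in CD gave -0.26 ± 0.26 (SE, adjusted p = 0.492), and HFD in fasted mice -0.62 ± 0.26 (SE, adjusted p = 0.141). Hsp90b1 (GRP94), the Hsp90 of the ER, was at 1121, 947, 1114 and 951 CPM in CD fed, 954, 631, 927 and 1148 in CD fasted, 618, 617, 684 and 539 in HFD fed and 668, 832, 798 and 641 in HFD fasted. The HFD fed group lay below CD fed without overlap, and CD fasted spread over both. The HFD change in fed mice was -0.75 ± 0.15 (SE, adjusted p = 0.00865), while fasting in CD gave -0.18 ± 0.15 (SE, adjusted p = 0.424). Its exons share 15.7% of their length with other annotated genes.

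Manf, a soluble factor that binds BiP, and Creld2, an ER-resident protein, are both induced by ER stress. Manf stood at 123, 125, 107 and 55.8 CPM in CD fed, 65.3, 34.9, 79.7 and 83.6 in CD fasted, 42.9, 37.9, 43.8 and 27.6 in HFD fed and 28.5, 56.02, 48.7 and 45.2 in HFD fasted. Among all 32 genes it had the largest HFD change in fed mice, -1.43 ± 0.29 (SE, adjusted p = 0.00853), to 37.1% of CD fed. No HFD fed library reached the lowest CD fed value, that of CD fed 4, and 9.3% of its exon length is shared with other genes. Creld2 was at 74.4, 83.7, 66.5 and 42.6 CPM in CD fed, 64.1, 28.99, 63.4 and 58.04 in CD fasted, 32.4, 30.7, 37.1 and 18.8 in HFD fed and 25.8, 49.3, 37.8 and 27.7 in HFD fasted. Its HFD change in fed mice was -1.17 ± 0.28 (SE, adjusted p = 0.0219), without overlap, and its fasting change in CD -0.32 ± 0.28 (SE, adjusted p = 0.435). Hspa5, Manf and Creld2 were lowest of their groups in the same libraries, CD fed 4, CD fasted 2, HFD fed 4 and HFD fasted 1.

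Hyou1 (GRP170), which exchanges nucleotide on BiP, was at 327, 349, 283 and 159 CPM in CD fed, 183, 94.02, 212 and 203 in CD fasted, 143, 132, 144 and 78.98 in HFD fed and 87.6, 157, 139 and 118 in HFD fasted. HFD fed lay below CD fed throughout, with a change of -1.17 ± 0.28 (SE, adjusted p = 0.0225). The fasting change in CD, -0.69 ± 0.28 (SE, adjusted p = 0.0829), did not pass, and CD fed 4 lay among the CD fasted values. Dnajb9 (ERdj4), a co-chaperone that binds IRE1 and BiP, was at 71.6, 61.4, 53.6 and 27.7 CPM in CD fed, 43.96, 29.8, 49.9 and 49.5 in CD fasted, 27.3, 22.5, 34.2 and 24.8 in HFD fed and 28.5, 30.01, 35.6 and 41.2 in HFD fasted. CD fed 4 lay inside the HFD fed range, and the change was -0.98 ± 0.24 (SE, adjusted p = 0.0233).

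Sdf2l1, a partner of ERdj3 in the BiP complex, fell in both comparisons with CD fed. Its levels were 36.5, 35.2, 36.4 and 40.7 CPM in CD fed, 12.2, 5.58, 16.99 and 18.5 in CD fasted, 15.02, 15.6, 17.1 and 12.6 in HFD fed and 7.77, 15.4, 14.9 and 9.01 in HFD fasted. The lowest CD fed library, at 35.2 CPM, stood above the highest of the other 12, at 18.5 CPM. The change was -1.48 ± 0.28 (SE, adjusted p = 0.00177) with fasting in CD, to 35.9%, and -1.30 ± 0.28 (SE, adjusted p = 0.0124) with HFD in fed mice, to 40.5%. Its interaction of 1.12 ± 0.40 (SE, adjusted p = 0.133) was the largest of the 32 and was not called.

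Dnajb11 (ERdj3), which hands unfolded chains to BiP, stood at 111, 105, 119 and 101 CPM in CD fed, 75.3, 46.7, 92.2 and 80.7 in CD fasted, 76.1, 76.3, 82.8 and 63.95 in HFD fed and 59.7, 81.7, 81.6 and 62.4 in HFD fasted. CD fed lay above all other libraries, and the change with fasting in CD was -0.57 ± 0.17 (SE, adjusted p = 0.0215), with -0.54 ± 0.17 (SE, adjusted p = 0.0575) for HFD in fed mice. Dnajc3 (p58IPK), a co-chaperone that restrains PERK, was at 286, 268, 313 and 301 CPM in CD fed, 192, 157, 242 and 247 in CD fasted, 284, 230.2, 296 and 231 in HFD fed and 175, 231, 222 and 183 in HFD fasted. It fell with fasting in CD, -0.48 ± 0.14 (SE, adjusted p = 0.0224), but HFD fed overlapped CD fed, -0.16 ± 0.14 (SE, adjusted p = 0.534). Dnajc10 (ERdj5), a disulfide reductase, was called in no comparison by edgeR on all libraries (but for fasting in CD without CD fed 2), with levels of 19.1 to 32.8 CPM and changes from -0.28 to 0.21 between pairs of groups.

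The lectin chaperones and disulfide isomerases fell in 3 of 7 genes with fasting in CD and in 3 of 7 with HFD in fed mice, beside 11.5% and 4.22% of all genes called lower (25.2% and 7.5% in either direction), and P4hb rose with fasting in HFD. Calr (calreticulin) was at 965, 885, 915 and 946 CPM in CD fed, 674, 452, 685 and 806 in CD fasted, 549, 562, 641 and 463 in HFD fed and 575, 726, 785 and 518 in HFD fasted. CD fed stood above the 12 other libraries, with a change of -0.74 ± 0.16 (SE, adjusted p = 0.0132) for HFD in fed mice and -0.50 ± 0.16 (SE, adjusted p = 0.034) for fasting in CD. Canx (calnexin), the membrane-bound lectin, was at 398, 354, 401 and 359 CPM in CD fed, 260.5, 192, 318 and 309 in CD fasted, 336, 297, 339.6 and 269.9 in HFD fed and 243, 299, 305 and 240.1 in HFD fasted. It fell with fasting in CD, -0.49 ± 0.14 (SE, adjusted p = 0.0201), and HFD fed, although below CD fed in every library, gave -0.28 ± 0.14 (SE, adjusted p = 0.246).

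Pdia3 (ERp57), the isomerase that works with both lectins, stood at 545, 465, 566 and 533 CPM in CD fed, 344, 229, 443 and 463 in CD fasted, 347, 342, 379.7 and 277 in HFD fed and 319, 421, 413 and 292 in HFD fasted. HFD fed and CD fasted both lay below CD fed, with -0.65 ± 0.19 (SE, adjusted p = 0.045) and -0.51 ± 0.19 (SE, adjusted p = 0.0545), on either side of the threshold. Pdia4 (ERp72) was at 319.6, 310.1, 287 and 218 CPM in CD fed, 217, 159, 236 and 272 in CD fasted, 135, 142, 155 and 109 in HFD fed and 151, 226, 214 and 147 in HFD fasted. HFD fed lay well below CD fed, with a change of -1.07 ± 0.18 (SE, adjusted p = 0.00292) in fed mice, to 47.6%, with -0.36 ± 0.18 (SE, adjusted p = 0.16) for fasting in CD. Pdia6 (P5), an isomerase that associates with BiP, was at 343, 316, 369 and 415 CPM in CD fed, 139, 88.01, 199.6 and 188 in CD fasted, 266, 240.4, 269 and 214 in HFD fed and 132, 209.7, 194 and 135 in HFD fasted. It fell with fasting in CD, -1.23 ± 0.22 (SE, adjusted p = 0.000912), to 42.6%, while HFD in fed mice gave -0.54 ± 0.21 (SE, adjusted p = 0.135), and CD fed overlapped neither group.

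P4hb (PDI), the most abundant isomerase and also a subunit of prolyl 4-hydroxylase and of the microsomal triglyceride transfer protein complex, was at 1528, 1529, 1684 and 1599.5 CPM in CD fed, 1429.5, 1633, 1504 and 1822 in CD fasted, 1279, 1158, 1332 and 1313 in HFD fed and 1661, 1612, 1802 and 1834 in HFD fasted. HFD fed was the low group and HFD fasted the high one, without overlap between them. With edgeR and TMM scaling on all libraries it was the single gene of the 32 called higher in any pairwise comparison. Its change was 0.44 ± 0.09 (SE, adjusted p = 0.0107) with fasting in HFD, whereas fasting in CD gave 0.01 ± 0.09 (SE, adjusted p = 0.947). HFD in fed mice gave -0.32 ± 0.09 (SE, adjusted p = 0.0506), just above the threshold, and the interaction was 0.43 ± 0.13 (SE, adjusted p = 0.0913). DESeq2 called P4hb in both. It was also called for HFD in fed mice by limma-voom, with a filter at a mean of 100 counts and with a replicate block. The same held without CD fasted 1, CD fasted 4 or HFD fasted 4. Txndc5 was called in no comparison by edgeR with TMM scaling over the 15075 genes in all libraries. It stood at 150.3 to 212 CPM, with its largest pairwise change -0.29 for HFD in fed mice. With total counts in place of TMM, edgeR called Txndc5 higher for HFD in fasted mice. DESeq2 called it for HFD in fed mice and the interaction, as edgeR did without CD fed 4, when it was called for fasting in CD as well.

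Of the 8 ER-associated degradation genes, 4 fell with HFD in fed mice and 4 with fasting in CD, with medians of -0.47 and -0.63 beside 0.01 and -0.01 over all genes. The shares of all genes called lower were 4.22% and 11.5%, and 7.5% and 25.2% in either direction. Syvn1 (HRD1), the ubiquitin ligase of the pathway, was at 179, 203, 145 and 91.6 CPM in CD fed, 123, 74.6, 103 and 115 in CD fasted, 62.8, 59.6, 68.5 and 68.7 in HFD fed and 59.9, 69.5, 75.5 and 79.9 in HFD fasted. HFD fed was tight and below the lowest CD fed library, with a change of -1.25 ± 0.20 (SE, adjusted p = 0.00187), to 42%. Its fall with fasting in CD, -0.57 ± 0.20 (SE, adjusted p = 0.0438), was near the threshold, and the 2 groups overlapped. Sel1l, the adaptor that holds HRD1 in place, stood at 262, 272, 248 and 180.2 CPM in CD fed, 159, 142, 216 and 233 in CD fasted, 174, 144, 170.4 and 123 in HFD fed and 149, 203, 203 and 148 in HFD fasted. It fell with HFD in fed mice, -0.65 ± 0.18 (SE, adjusted p = 0.0373), without overlap, and gave -0.36 ± 0.18 (SE, adjusted p = 0.157) with fasting in CD.

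Herpud1, a membrane protein of the HRD1 complex, was at 819, 775, 568 and 489 CPM in CD fed, 509, 227, 456 and 350.1 in CD fasted, 543, 512, 651 and 384 in HFD fed and 363, 448, 409 and 326 in HFD fasted. Fasting in CD changed it by -0.78 ± 0.23 (SE, adjusted p = 0.0224), with CD fasted 1 above CD fed 4, and HFD in fed mice by -0.34 ± 0.23 (SE, adjusted p = 0.405). Edem1, a lectin that selects glycoproteins for disposal, was at 222, 227, 219 and 182 CPM in CD fed, 121, 96.1, 146 and 162 in CD fasted, 172, 152, 182 and 146 in HFD fed and 112, 159, 122 and 139 in HFD fasted. All CD fasted values were below the CD fed ones, with a change of -0.69 ± 0.15 (SE, adjusted p = 0.00329), and HFD in fed mice gave -0.38 ± 0.15 (SE, adjusted p = 0.127).

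The derlins, membrane proteins of the retrotranslocation site, differed among themselves. Derl2 was at 94.3, 96.6, 112 and 85.9 CPM in CD fed, 61.9, 39.3, 63.8 and 60.3 in CD fasted, 79.2, 67.3, 67.3 and 59.4 in HFD fed and 48.1, 55.1, 54.7 and 57.4 in HFD fasted. CD fed stood above the 12 others, and the change was -0.79 ± 0.13 (SE, adjusted p = 0.000771) with fasting in CD and -0.51 ± 0.13 (SE, adjusted p = 0.0318) with HFD in fed mice. Derl1 was at 143, 134, 143 and 136 CPM in CD fed, 122, 146, 120.2 and 122 in CD fasted, 117, 112, 119 and 122 in HFD fed and 118, 113, 121 and 120.1 in HFD fasted. It moved little, to 84.5% of CD fed with HFD in fed mice, -0.24 ± 0.07 (SE, adjusted p = 0.0392), without overlap. Derl3 ranged most, from 1.31 CPM in HFD fasted 4 to 21.8 in CD fed 4, and was called in no comparison by any fit run, with SEs of 0.68 to 0.69 for the pairwise changes. Selenos, which recruits the p97 ATPase, was at 35.3 to 72.2 CPM and was called in no comparison by edgeR on all libraries (but for HFD in fed mice without CD fed 4), its largest change being -0.44 for HFD in fed mice.

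All 3 translocon genes fell with fasting in CD, beside 11.5% of all genes. Sec61a1, the channel subunit, was at 239, 221, 211 and 179.5 CPM in CD fed, 119, 106, 133 and 125 in CD fasted, 132, 146, 133 and 152 in HFD fed and 107, 127, 124 and 153 in HFD fasted. CD fed lay above every other library, with -0.82 ± 0.11 (SE, adjusted p = 0.00013) for fasting in CD and -0.59 ± 0.11 (SE, adjusted p = 0.00542) for HFD in fed mice. Fasting in HFD gave -0.14 ± 0.11 (SE, adjusted p = 0.44), and the interaction 0.67 ± 0.16 (SE, adjusted p = 0.0349). Sec61b, the small subunit beside the channel, stood at 47.1, 47.7, 48.6 and 49.4 CPM in CD fed, 18.6, 17.7, 22.8 and 20.7 in CD fasted, 42.7, 41.5, 38.9 and 37.2 in HFD fed and 17.6, 26.2, 25.3 and 25.7 in HFD fasted. It had the lowest adjusted p of the 32 for fasting on either diet, with -1.27 ± 0.11 (SE, adjusted p = 4.28e-06) in CD and -0.76 ± 0.11 (SE, adjusted p = 0.00124) in HFD, and the fed and fasted libraries of each diet did not overlap. HFD in fed mice gave -0.27 ± 0.11 (SE, adjusted p = 0.153). Ssr1 (TRAP alpha), of the complex that assists insertion, was at 95.5, 86.9, 94.6 and 73.8 CPM in CD fed, 52.8, 40.7, 54.8 and 54.01 in CD fasted, 68.96, 67.4, 71.8 and 55.001 in HFD fed and 50.96, 55.8, 56.5 and 61.6 in HFD fasted. It changed by -0.79 ± 0.11 (SE, adjusted p = 0.000175) with fasting in CD and by -0.41 ± 0.11 (SE, adjusted p = 0.0342) with HFD in fed mice, without overlap in either.

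**Figure D4:**
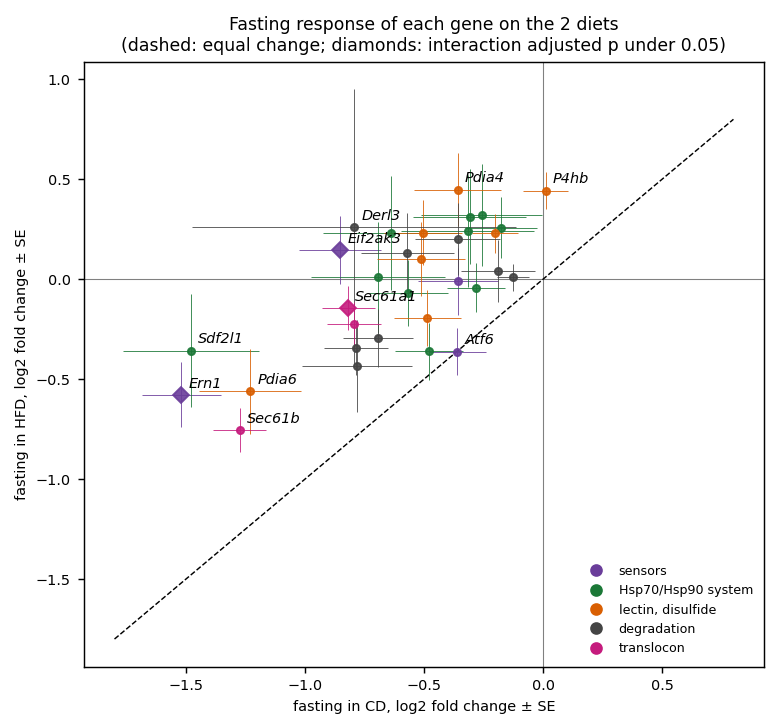
For each of the 32 genes the fasting change in CD (horizontal) is set against that in HFD (vertical), as log2 fold changes with SE bars, coloured by role; the dashed line marks equal changes and diamonds mark the genes with a called interaction. All points but that of Atf6, which lies on the line, are above it.

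Calls near the threshold depended on single libraries. For HFD in fed mice 18 calls became 10 without CD fed 1, 9 without CD fed 2 and 10 without HFD fed 4, all lower. In 25 alternative fits, 9 genes kept that call throughout: Eif2ak3, Hspa5, Hsp90b1, Sdf2l1, Manf, Calr, Pdia4, Syvn1 and Sec61a1. Of the others, Ern1 lost it without CD fed 2, Hyou1 and Creld2 in 3 of 16 fits that left out 1 library, Dnajb9 in 5, Derl2 in 6, Sel1l and Ssr1 in 7, Derl1 in 10 and Pdia3 in 11, with adjusted p up to 0.11 in these 16 fits. In the 9 other fits Derl1 lost it in 3 (adjusted p up to 0.167), Pdia3 and Ssr1 in 2, and Ern1, Dnajb9 and Derl2 in 1 each. For fasting in CD 10 genes kept the call: Ern1, Eif2ak3, Sdf2l1, Canx, Pdia6, Edem1, Derl2, Sec61a1, Sec61b and Ssr1. Dnajb11 lost it without CD fed 3, Dnajc3 in 3 of 16 fits, Herpud1 in 4, Atf6 in 5, Calr in 7 and Syvn1 in 11, with adjusted p up to 0.15. In the 9 other fits Syvn1 lost it in 3, and Herpud1 and Atf6 in 1 each. On HFD, P4hb and Sec61b kept theirs, the Ern1 call was lost without HFD fed 1, 2 or 4 or HFD fasted 1, 2 or 3 (adjusted p up to 0.114), and Atf6, Pdia6 and Derl2 were called too without CD fasted 2, which made 6. The interaction had 0 calls without CD fed 2 or 3, CD fasted 2 or 4, HFD fed 1, 2 or 3, or HFD fasted 3 or 4, 1 without CD fed 1 or HFD fasted 2, and 5 without CD fed 4. Without CD fasted 2, 12 were called for fasting in CD. Without CD fed 4, the library in which Hspa5, Manf, Creld2, Hyou1 and Dnajb9 were lowest of their group, there were 18 calls each for HFD in fed mice and for fasting in CD.

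Other genes of the ER were looked at beside the 32. Of 103 further ER genes tested in 4 lists, 22 were called with HFD in fed mice, all lower, and 35 fell and 9 rose with fasting in CD. On HFD, fasting lowered 12 and raised 3, and HFD in fasted mice lowered 10 of the 10 it changed. The interaction was called for 5, all positive. The shares called were 21.4% for HFD in fed mice, 42.7% for fasting in CD, 14.6% for fasting in HFD, 9.71% for HFD in fasted mice and 4.85% for the interaction, beside 7.5%, 25.2%, 8.86%, 7.7% and 2.59% of all genes. The medians were -0.13 for HFD in fed mice and -0.15 for fasting in CD, beside -0.57 and -0.51 for the 32.

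Among 27 other folding enzymes, 12 were called with fasting in CD, all lower, led by Uggt1, the glycoprotein glucosyltransferase that sends unfolded chains back to the lectins (-1.03 ± 0.11, adjusted p = 2.59e-05), and the oxidase Ero1b (-0.98 ± 0.25, adjusted p = 0.00951). With HFD in fed mice 6 fell, led by the isomerase Pdia5 (-0.90 ± 0.17, adjusted p = 0.00617). Of 30 translocon, signal peptidase and glycosylation genes, 15 fell with fasting in CD and 11 with HFD in fed mice, which were all the calls. The folding enzymes called were 44.4% and 22.2% of their list and these 50% and 36.7% of theirs, for fasting in CD and HFD in fed mice, beside 25.2% and 7.5% of all genes. Sec61g, the other small channel subunit, fell with fasting in CD (-0.89 ± 0.09, adjusted p = 1.39e-05) and in HFD (-0.73 ± 0.09, adjusted p = 0.000409), as Sec61b did. The oligosaccharyltransferase subunit Ddost fell with HFD in fed mice (-0.59 ± 0.10, adjusted p = 0.00238) and had a called interaction of 0.72 ± 0.14 (adjusted p = 0.0165).

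The 25 other degradation genes were split, 4 higher and 4 lower with fasting in CD, and of 21 other sensors and regulators 5 rose and 4 fell. These are 32% and 42.9% of the lists beside 25.2% of all genes. Creb3l3, a liver ER-bound factor induced by fasting, rose by 0.79 ± 0.13 (adjusted p = 0.000603), while its relative Creb3l2 changed by -1.22 ± 0.18 (adjusted p = 0.000259) and by -1.37 ± 0.18 (adjusted p = 0.000542) with HFD in fed mice. Of 18 genes listed for the PERK branch and ATF4, 1 was lower with fasting in CD, 5.56% beside 25.2% of all genes. With HFD in fed mice 2 were higher and 1 lower, 16.7% beside 7.5% of all genes. The lower one was Atf4 itself (-0.44 ± 0.09, adjusted p = 0.00924). The 2 higher ones were Vldlr (1.72 ± 0.40, adjusted p = 0.0183) and Eif2ak4 (0.23 ± 0.07, adjusted p = 0.046). Among 22 cytosolic and mitochondrial chaperones, 6 were higher and 1 lower for fasting in CD, among them the cytosolic Hsp70 Hspa8 (0.56 ± 0.14, adjusted p = 0.0112), and 1 higher and 4 lower for HFD in fed mice. That is 31.8% and 22.7% of the 22, beside 25.2% and 7.5% of all genes.

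Markers of hepatocytes and other cells were followed beside these changes. With HFD in fed mice, where 18 of the 32 genes fell, edgeR called 0 of 66 markers tested in 11 lists, beside 7.5% of all genes. Of these markers 9 had an unadjusted p under 0.05, beside 22.9% of all genes, DESeq2 called 2 and limma-voom 0. HFD fed 4, the low library of its group, stood apart in other-cell markers. It was the highest of the 4 for 7 of 8 stellate cell markers, which summed to 388 CPM beside 220.04 to 239 in the other 3, for 9 of 10 Kupffer cell and macrophage markers, 494 CPM beside 339 to 355, and for 4 of 5 cholangiocyte markers, 39.3 CPM beside 24.99 to 32.05. Its hepatocyte sum was also the highest of its group, 140599 CPM beside 115275 to 126445. Its sum of sinusoidal endothelium markers was the lowest, 339 CPM beside 348 to 351. A similar stellate sum, 387 CPM, was found in HFD fasted 4, the highest of HFD fasted. HFD fasted 4 was not the low library of its group, being lowest for 9 of the 32 genes and highest for 11. Without HFD fed 4, 10 of the 32 genes were called with HFD in fed mice, and the median change of the 32 was -0.52. CD fasted 2, likewise low for the 32, was the highest of its group for 10 of 10 Kupffer cell and macrophage markers. Its hepatocyte sum was the lowest of its group, 88925 CPM beside 98225 to 116059. HFD fasted 1 also had the lowest hepatocyte sum of its group, 75757 CPM beside 85312 to 109017, and the highest sums of Kupffer cell and macrophage markers, 439 CPM beside 271 to 429, and of sinusoidal endothelium, 398 CPM beside 322 to 389, but was the lowest for 6 of 8 stellate cell and 4 of 5 cholangiocyte markers. CD fed 4 was the highest for 0 of 10 Kupffer cell and macrophage markers, and its sums were the highest of its group for erythrocyte markers, 403 CPM beside 306 to 393, and acinar markers, 23.5 CPM beside 14.4 to 17.99. With fasting in CD 17 of the 66 were lower (25.8%, beside 11.5% of all genes) and 1 higher (1.52%, beside 13.7%), among them 2 of 8 hepatocyte markers, 5 of 10 Kupffer cell and macrophage markers, whose summed level was 308 to 566 CPM in CD fed and 204 to 336 in CD fasted, and 5 of 8 markers of sinusoidal endothelium, at 347 to 392 and 259 to 319 CPM. With fasting in HFD 2 markers were higher and 5 lower, 3.03% and 7.58% beside 4.78% and 4.07% of all genes. With HFD in fasted mice 7 were higher, 5 of them of the 8 endothelial ones, and 2 lower, 10.6% and 3.03% beside 3.05% and 4.65%. The interaction was called for 3 markers, 4.55% beside 2.59%, all positive as for the 32 genes, and 2 were endothelial. The part of these markers in the HFD, fasting and interaction results was not tested.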

How the data were processed

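The table deposited by the authors holds raw read counts per Ensembl gene, whole and not normalized, for 16 liver libraries. Per the submitters' processing notes, CASAVA 1.8.4, TopHat2 2.0.11, featureCounts and the build GRCm38 (mm10) were used. Libraries were prepared after poly(A) enrichment. The strand setting of the counting is not given in the sources used here, and no column was left unused.

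Groups and replicate numbers came from the labels. Counts were filtered with filterByExpr and fitted in R 4.3.3 with edgeR 4.0.16, with TMM scaling and 5 contrasts between the group coefficients. The fit used all 16 libraries, which left 12 residual degrees of freedom, and the common variation between livers was 19.2%. limma 3.58.1 and DESeq2 1.42.0 served as alternatives, beside other scalings and filters, a replicate block, thinned libraries and leaving out each library. Pipelines were tested on simulated data. RPKM used merged GENCODE exon lengths. With 3 counts as floor, the limit was 0.0536 to 0.0767 CPM, far below the 60 counts that were the lowest of any of the 32 genes, and floors cover counting error only.

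The 32 genes, the lists of other genes and the markers were chosen with earlier results of these data known. Genes called in any comparison, 27 of the 32, are described with every library's value, as is Xbp1, and the other 4 by ranges. Of each list of other genes, at most the 2 largest rises and 2 largest falls among called genes with a mean of at least 100 counts were named. Protein features were not analysed here.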

Additional observations from a re-analysis of the deposited data

Results flagged for a closer look

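In 6 of 128 groups of 4 libraries (4.69%), 1 library stood apart from the other 3 by Dixon's criterion for 1 of the 32 genes, and chance gives about 1 in 20. CD fasted 2 did so for 3 genes: Derl1, high at 146 CPM beside 120.2 to 122, Derl2, low at 39.3 beside 60.3 to 63.8, and Ssr1, low at 40.7 beside 52.8 to 54.8. Ern1 was low in HFD fed 3, at 58.1 CPM beside 92.9 to 96.7. Txndc5 was low in CD fed 4, at 159 CPM beside 208 to 212. Sec61b was low in HFD fasted 1, at 17.6 CPM beside 25.3 to 26.2.

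The fasting change differed between the diets for 3 of the 32 genes by the interaction term of edgeR. The change in HFD minus that in CD was 0.94 for Ern1 (adjusted p = 0.0407), 0.996 for Eif2ak3 (adjusted p = 0.0407) and 0.67 for Sec61a1 (adjusted p = 0.0349), on the log2 scale. None of these calls held in every alternative fit: each was lost with a replicate block, and with 1 library left out the call was lost in 11, 12 and 11 of 16 fits, respectively.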

How the results depend on the processing

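No called gene changed direction under any alternative. Of 640 fits of called genes with 1 library left out, 516 kept the call and 124 lost it, and of 357 other fits 335 kept it and 22 lost it. With 1 library left out, 11 to 18 genes were called for fasting in CD, 2 to 6 for fasting in HFD, 9 to 19 for HFD in fed mice, 0 to 2 for HFD in fasted mice and 0 to 5 for the interaction. DESeq2 called 1 gene for HFD in fasted mice and 9 for the interaction. Total counts in place of TMM moved the median of all genes in HFD in fasted mice to 0.17 and that of the 32 to 0.12, and called 2 genes there, Txndc5 and Sec61b, both higher, and 5 for the interaction. For HFD in fed mice total counts called 15 genes in place of 18, without Derl1, Derl2 and Ssr1. The TMM factors split by diet, at 0.929 to 0.984 in CD libraries and 1.0005 to 1.13 in HFD libraries. The cause of these shifts was not tested.

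The labels do not say that replicate numbers pair the libraries. Deviations of same-numbered libraries correlated from -0.24 to 0.66. The value of 0.66 came from 1 pair, HFD fed 4 with HFD fasted 4, and the next highest was 0.206, CD fed 3 with HFD fed 3. Between fed and fasted libraries of 1 diet all 8 were positive, 0.05 to 0.11 in CD (2 of 4 over 0.1) and 0.06 to 0.66 in HFD (3 of 4), so not every pair was over 0.1, the level set for pairing, and 5 of 16 libraries correlated best with their own number. With the replicate number as a block, 15, 2, 17, 0 and 0 genes were called in the same order of comparisons, so the replicate block left 0 interaction calls. Fitting only the groups compared was not run for the interaction, which needs all 4. At these depths counting error was small beside the spread between livers, and 4 libraries per group limited the precision.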
